A study of Mus musculus with 18 samples.

Results

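DNA replication in S phase is run by a conserved set of proteins. The origin recognition complex, Cdc6 and Cdt1 load the Mcm2 to Mcm7 helicase onto origins, Cdc45 and the GINS complex activate it, and polymerases, the sliding clamp and its loader copy the strands, while nucleotide enzymes and histone chaperones supply building blocks and chromatin. Many of these genes are transcribed at the passage from G1 into S phase under E2F factors. Their mRNA levels in a tissue therefore depend in part on how many of its cells are cycling. The 45 genes described here were chosen by name from these roles: 10 for origin licensing, 6 for helicase activation, 8 for polymerases and primase, 5 for the clamp and its loader, 4 for Okazaki fragments and single-stranded DNA, 5 for nucleotide supply, 4 for the copying of chromatin and 3 regulators of the G1 to S passage. All 45 were found among the 24376 genes of the count table, and all 45 passed the low-count filter, as did 17269 genes in total.

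The study profiled RNA from the epithelium of mouse mammary buds 1 to 3, dissected at the embryonic stages E13.5 and E16.5, to learn what Wnt/β-catenin signalling does there. Stabilized embryos were Krt14Cre/wt; Ctnnb1 flox3/wt: Cre under the Krt14 promoter removes exon 3 of the floxed β-catenin allele in epithelial cells, which leaves 1 allele for a stabilized protein and 1 wild-type allele. Controls were Krt14wt/wt; Ctnnb1 flox3/wt littermates, which carry the same floxed allele without Cre, so an effect of Cre itself cannot be told apart from that of the stabilized protein. Each genotype had 4 libraries at the younger stage, where embryos of both sexes were used, and 5 at the older one, where all were female, so stage and sex makeup cannot be told apart. The strain background was a mix of C57Bl/6 and NMRI, and each library pooled 2 to 3 embryos of 1 litter. Which litter went into which library could not be read from the labels, and the p-values measure the spread between pools that may share litters.

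Library totals ran from 26768810 to 36922108 counts. Expression is given in CPM, counts scaled to a common library total with TMM factors, as mean ± SD. Log2 fold changes are given ± SE, and "rose" or "fell" means an adjusted p under 0.05 in edgeR's quasi-likelihood test, with Benjamini-Hochberg adjustment over the 17269 genes. Ctnnb1 itself, whose mRNA does not show which allele was cut, was 2683 ± 333 CPM (n = 4) in controls at E13.5 against 3260 ± 347 CPM (n = 4) with stabilization, and rose at E16.5 from 1248 ± 111 to 2278 ± 564 CPM (n = 5 each). Krt14, the source of the Cre promoter, fell at E13.5 by 1.22 on the log2 scale and differed by -0.37 at E16.5 (edgeR adjusted p = 0.189). The 7 epithelial markers summed to 2547 to 3096 CPM in controls and 2527 to 3296 CPM in stabilized buds at E13.5. At E16.5 they summed to 2278 to 2556 and 3542 to 6629 CPM, where the genotypes did not overlap. Of the 7, 1 rose and 2 fell at E13.5, and 3 rose and 3 fell at E16.5. Krt5 was at 355 to 599 CPM in E16.5 controls and 1684 to 3855 CPM in E16.5 stabilized buds. In the same groups Krt8 was at 183 to 291 and 15.6 to 93.7 CPM. The 5 mammary bud markers (Tbx3, Gata3, Pthlh, Lef1 and Sostdc1) summed to 2590 to 3699 CPM in controls and 1732 to 2084 CPM in stabilized buds at E13.5, where 4 fell and Sostdc1 rose, and to 965 to 1292 and 1187 to 1605 CPM at E16.5. Their part in the results was not tested. Summed markers of endothelium, immune cells, muscle and erythroid cells stayed at or under 14.8 CPM, with all 5 erythroid markers at 0 in E13.5 controls, Myog at 0 in E13.5 controls and both E16.5 groups, Tek at 0 in E13.5 controls, Emcn at 0 in E13.5 stabilized buds and Cd3e at 0 in both control groups. The 10 mesenchyme markers summed to 417 to 1069 CPM in E13.5 controls, against 297 to 424 CPM in E13.5 stabilized buds. In the E16.5 groups they summed to 565 to 999 and 524 to 871 CPM, but members went opposite ways there, as 1 rose and 3 fell. Dcn was at 0.892 to 9.02 CPM in E16.5 controls and 211 to 383 CPM in E16.5 stabilized buds. In the same groups Vim was at 443 to 653 and 122 to 224 CPM. The part of the mesenchyme markers in the results was not tested. The 7 melanocyte and Schwann markers summed to 583 to 762 CPM in E16.5 controls, most of it Sox10 (554 ± 59.0 CPM), and to 118 to 227 CPM in E16.5 stabilized buds; the 6 others summed to 78.7 to 147 and 109 to 202 CPM there, and the full list to at most 43.6 CPM at E13.5; their part in the results was not tested either. Control replicate 3 at E13.5 had 4.18% mitochondrial counts against 2.18 to 2.5% in the other E13.5 controls, and stabilized replicate 4 at E16.5 had 20719 detected genes against 17803 to 18540 in its group; without both, counts of replication genes changed by at most 1. Mitochondrial counts were 2.21 to 3.88% in E16.5 controls and 2.62 to 5.36% in E16.5 stabilized buds, of which 4 of 5 lay above every control of that stage; their part in the fall at E16.5 was not tested.

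The replication genes went in opposite directions at the 2 stages. In E13.5 stabilized buds 32 of 45 rose and 0 fell, with a median log2 fold change of 0.72, against 0.0084 over all tested genes. In E16.5 stabilized buds 41 of 45 fell and 0 rose, with a median of -1.02, against 0.10 over all tested genes. The count against the common direction was also 0 at an unadjusted p under 0.05 and in DESeq2, at both stages. At E13.5, 14.9% of all tested genes were called and 9.58% were called higher and 5.29% lower; at E16.5, 41.7% were called and 19.4% were called lower. The groups did not overlap for 29 genes at E13.5, all higher in stabilized buds, where 9.93% of all genes were apart upward and 6.6% downward, and for 41 genes at E16.5, all lower, where 17.9% of all genes did. There were 31 genes that rose at E13.5 and fell at E16.5. Over all tested genes this combination was not counted, and its share can be at most the 9.58% called higher at E13.5. The difference between the genotype effects of the 2 stages, tested as an interaction, was called downward for 42 of 45 genes (median -1.74), where 32.2% of all genes were called with 16.6% downward and 15.6% upward.

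The 4 groups formed a simple order. Summed over the 45 genes, E13.5 controls held 1623 to 1883 CPM (median 1776), E13.5 stabilized buds 2611 to 3139 CPM (median 3018), E16.5 stabilized buds 2705 to 3271 CPM (median 3067) and E16.5 controls 5541 to 6426 CPM (median 5808). E13.5 controls had the lowest mean for 42 genes, E16.5 controls the highest for 42, and both held for 40. How often all tested genes took this order was not counted. The sums of the stabilized groups overlapped each other and lay apart from both control groups. In these bulk samples fewer cycling cells and less RNA per cycling cell cannot be told apart.

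**Figure D1:**
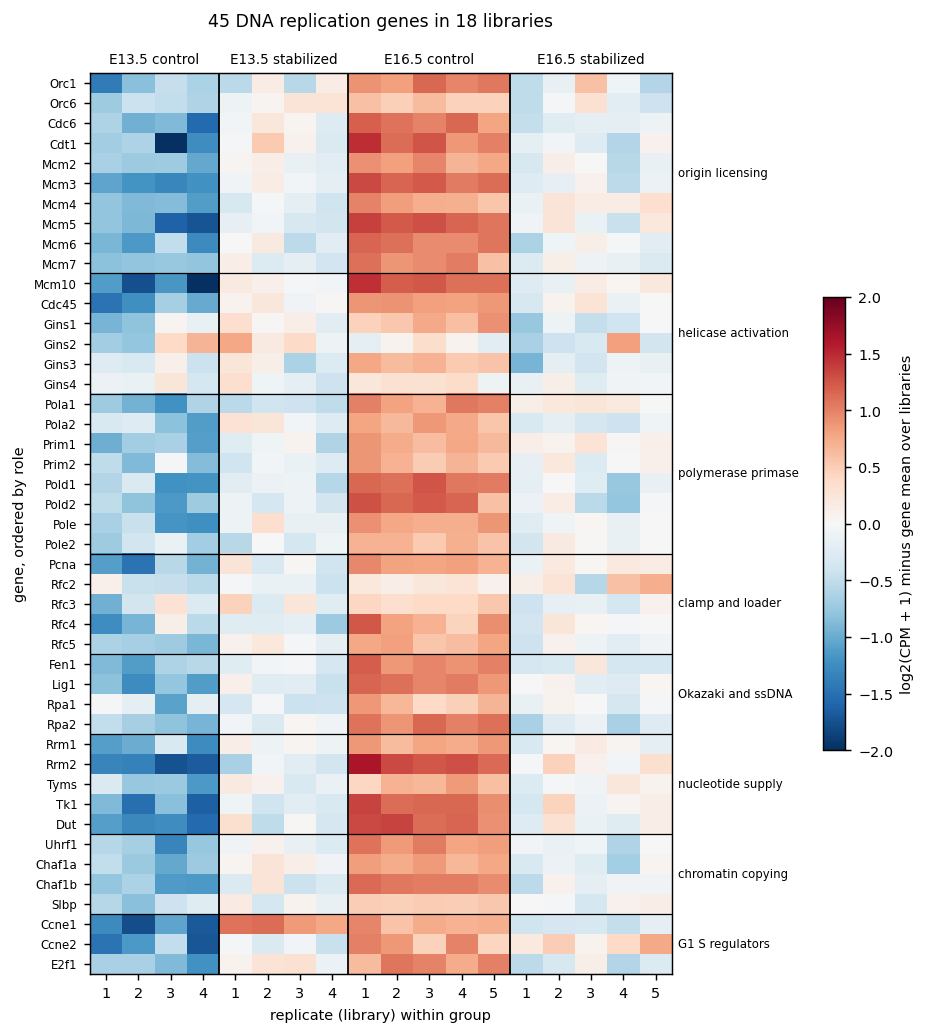
Levels of the 45 replication genes (rows, by role) in the 18 libraries (columns, by group), as log2(CPM + 1) minus the gene's mean over all libraries; red is above and blue is below that mean. E13.5 controls are blue and E16.5 controls red for most rows, both stabilized groups lie between them for most genes, and Ccne1, Gins2, Gins3, Gins4 and Rfc2 have their highest or lowest group mean elsewhere.

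Origin licensing genes showed the pattern with few exceptions: 9 of 10 rose at E13.5 and 10 of 10 fell at E16.5. Mcm3, a subunit of the helicase ring, was at 57.6, 52.3, 48.2 and 51.7 CPM in E13.5 controls, against 114, 134, 117 and 106 CPM in E13.5 stabilized buds, then at 302, 273, 283, 249 and 264 CPM in E16.5 controls and 101, 108, 128, 84 and 112 CPM in E16.5 stabilized buds. Every stabilized library was above every control at E13.5 and below every control at E16.5. The effects were 1.16 ± 0.121 (adjusted p = 1.14e-06) and -1.36 ± 0.108 (adjusted p = 7.21e-09, edgeR), a 2.24-fold gain and a 2.58-fold loss. Across the 6 ring subunits the E13.5 effects ran from 0.63 (Mcm7) to 1.16 (Mcm3) and the E16.5 effects from -1.36 (Mcm3) to -0.62 (Mcm4).

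Cdt1, the loading factor that geminin restrains, rose from 16.3 ± 7.95 to 38.7 ± 9.55 CPM at E13.5 and fell from 81.5 ± 13.6 to 31.4 ± 5.41 CPM at E16.5. Its E13.5 controls were uneven, at 21.8, 23.1, 5.79 and 14.6 CPM, with replicate 3 the lowest, yet all lay under the lowest stabilized library of 29.3 CPM. The gain of Cdt1 missed the threshold with the offsets of the deposited normalized matrix, which are factors specific to gene and library (0.79, edgeR adjusted p = 0.23), and in a fit of the 2 groups alone (0.0644). Cdc6, the ATPase that works with Cdt1, changed by 1.02 at E13.5 and -1.31 at E16.5. Orc6 and Orc1 are subunits of the complex that marks origins. Orc6 changed by 0.72 and -0.69, and Orc1 fell at E16.5 (-1.14 ± 0.261) while its E13.5 difference of 0.72 ± 0.291 did not pass (edgeR adjusted p = 0.109). With those offsets the fall of Orc1 was -0.71 and was lost (0.148), as was the gain of Mcm7 (0.51, edgeR adjusted p = 0.0836).

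The 6 ring subunits assemble in equal numbers, so their levels were compared per kilobase of merged exon. Mcm2 had the lowest mean in all 4 groups on this scale, at 13.3 ± 1.47 CPM per kb in E13.5 controls and 41.0 ± 3.36 CPM per kb in E16.5 controls. Only in E16.5 controls did its range lie under those of all the others. In E13.5 controls its range of 11.2 to 14.5 overlapped those of Mcm3 (12.9 to 15.3), Mcm5 (9.76 to 18.9) and Mcm6 (13.6 to 23.5). The highest mean was Mcm4 in 3 groups, for example at 22.9 ± 2.11 CPM per kb in E13.5 controls, and Mcm5 in E16.5 controls at 77.5 ± 6.12 CPM per kb. The highest mean was 1.72 times the lowest in E13.5 controls, 1.66 times in E13.5 stabilized buds, 1.89 times in E16.5 controls and 2.35 times in E16.5 stabilized buds. In E16.5 controls Mcm3, Mcm4, Mcm5, Mcm6 and Mcm7 had overlapping ranges. The order depends on the length used: per kilobase of median transcript length, Mcm5 was the lowest in all 4 groups.

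The E2F site is a textbook element of S-phase promoters, and 3 upstream stretches are shown because each holds its letters and lies before any transcript start of its gene in the annotation. RefSeq promoters (300 bases, 250 before to 50 after the start, GRCm38.p6) matched 37 of the 45 genes. The letters TTTCGCGC, TTTGGCGC or TTTCCCGC were found on either strand in 14 of the 37, or 37.8%, against 2.12% of 27025 genes with a promoter and 3.57% of the 12312 of them that were tested here. Without TTTCCCGC, 11 of 37 held a match (29.7%, against 0.929% of all genes). CCAAT on either strand was in 22 of 37 (59.5%, against 41.1%). Among 18 mitotic genes with a promoter, 1 held the E2F letters and 15 held CCAAT. Among 27 replication factors outside the 45 genes that had a promoter, 7 held the E2F letters (25.9%) and 11 held CCAAT. When TTTCCCGC was left out, 1 of these 27 held a match (3.7%). These are matches of letters and no binding was measured. In the lines, read 5′ to 3′ on the gene's strand, capitals mark the E2F letters on either strand; in Mcm5 and at the first site of Mcm6 a TTTCGCGC match and a TTTGGCGC match on opposite strands overlap.
Mcm5, chr8:75109322-75109401, plus strand: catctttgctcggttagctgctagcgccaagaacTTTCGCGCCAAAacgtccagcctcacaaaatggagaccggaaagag
Mcm6, chr1:128359735-128359825, minus strand: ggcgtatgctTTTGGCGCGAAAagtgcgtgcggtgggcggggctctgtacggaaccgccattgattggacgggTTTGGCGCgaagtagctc
Pola1, chrX:93632250-93632329, minus strand: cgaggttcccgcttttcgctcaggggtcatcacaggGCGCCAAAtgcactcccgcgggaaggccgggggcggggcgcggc
Mcm5 changed by 1.00 at E13.5 and -1.25 at E16.5, Mcm6 by 0.81 and -1.21, and Pola1 by 0.39 and -0.77. The gain of Pola1 was lost in several alternative fits, given below. These directions were not particular to the 3 genes: 45 of the 45 had a positive E13.5 value and 44 a negative E16.5 value. Of the 14 genes with the letters, Gins3, Orc1, Pold1, Pole2 and Rfc3 did not pass at E13.5 and the others rose. Rrm2 and Mcm10, which changed in the same directions, had a promoter in the table and held none of the E2F letters in this window.

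Helicase activation was split. Mcm10, which helps the loaded helicase to start unwinding, was at 13.7, 8.39, 13.1 and 5.63 CPM in E13.5 controls, against 35.2, 33, 30.1 and 29.5 CPM in E13.5 stabilized buds, with no overlap. It rose by 1.64 ± 0.212 at E13.5 and fell from 73.6 ± 8.07 to 31.1 ± 4.27 CPM at E16.5. With the offsets of the deposited normalized matrix, its E13.5 difference was 0.72 and missed the threshold (edgeR adjusted p = 0.108). Cdc45, a partner of the helicase at the fork, rose by 1.20 and fell by 0.89.

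The 4 GINS genes, which encode a complex that joins the helicase at the fork, behaved less uniformly. At E13.5 0 of the 4 passed in edgeR or DESeq2, or at an unadjusted p under 0.05 in either, and Gins1 differed by 0.53, Gins2 by 0.31, Gins3 by 0.12 and Gins4 by 0.01. Gins1 (-1.06) and Gins3 (-1.02) fell at E16.5. Gins2 was at 15.1, 14.2, 33.3 and 40.6 CPM in E13.5 controls and, with stabilization at that stage, at 43.4, 28.5, 32.8 and 23.2 CPM. It was at 21.9, 26.5, 32.2, 26.3 and 21.4 CPM in E16.5 controls and 15.7, 18.6, 20.2, 45 and 19.2 CPM in E16.5 stabilized buds. All 4 groups overlapped, and its spread within a group was wide, with an SD of 13.2 CPM around a mean of 25.8 CPM in E13.5 controls. Gins2 and Gins4 were the only replication genes that passed in none of the 5 comparisons; with library totals alone Gins4 fell at E16.5 (-0.42, edgeR adjusted p = 0.0362). Exons of Gins2 overlap those of Gse1 on the opposite strand, and without a stated strand setting their reads may be mixed.

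Polymerase and primase genes all fell at E16.5 (8 of 8), and 4 of 8 rose at E13.5. Pole, the catalytic subunit of the leading-strand polymerase, rose from 43.8 ± 12.1 to 78.9 ± 14.1 CPM at E13.5 and fell from 138 ± 8.61 to 74.3 ± 6.05 CPM at E16.5. Pold1, its lagging-strand counterpart, was at 111, 107, 119, 103 and 103 CPM in E16.5 controls and 43.7, 49.5, 41.5, 29 and 44.6 CPM in E16.5 stabilized buds. No stabilized library reached the controls, and the fall was -1.39 ± 0.176 (edgeR adjusted p = 3.07e-06). Pold2, its accessory subunit, fell by 1.35. At E13.5 Pold1 differed by 0.54 (edgeR adjusted p = 0.0696) and Pold2 by 0.57 (0.0576), and neither call was stable. Pold1 passed under a replicate block (0.59, edgeR adjusted p = 0.0392) and was -0.30 with the offsets of the deposited normalized matrix, and Pold2 passed in DESeq2 (0.0415). Pold1 also passed without control replicate 2 (0.0113) or stabilized replicate 4 (0.0489), and Pold2 without control replicate 1 (0.0435).

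Primase and its polymerase α partners start each new strand. Prim1 and Pola2 rose by 0.68 and 0.67 at E13.5 and fell by 0.62 and 1.01 at E16.5. Pola1 averaged 43.8 ± 8.07 CPM in the younger controls and 57.4 ± 2.96 CPM in stabilized buds of that stage, and this smallest of the called gains (0.39, edgeR adjusted p = 0.0405) was lost without control replicate 2 or 3 or without any one of the 4 stabilized libraries (adjusted p from 0.0551 to 0.107). It was also lost with library totals alone, with no low-count filter, with the offsets of the deposited normalized matrix, in a fit of the 2 groups alone, under a replicate block and without both libraries that stood apart (edgeR adjusted p from 0.0642 to 0.59). The gain of Pola2 was lost with those offsets (0.0503) and, like that of Prim1 (0.0563), in a fit of the 2 groups alone (0.0919). Prim2 and Pole2 did not pass at E13.5 (0.34 and 0.25) and fell at E16.5 (-0.70 and -0.73); Prim2 passed at E13.5 without control replicate 3 (0.56, edgeR adjusted p = 0.0175).

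**Figure D2:**
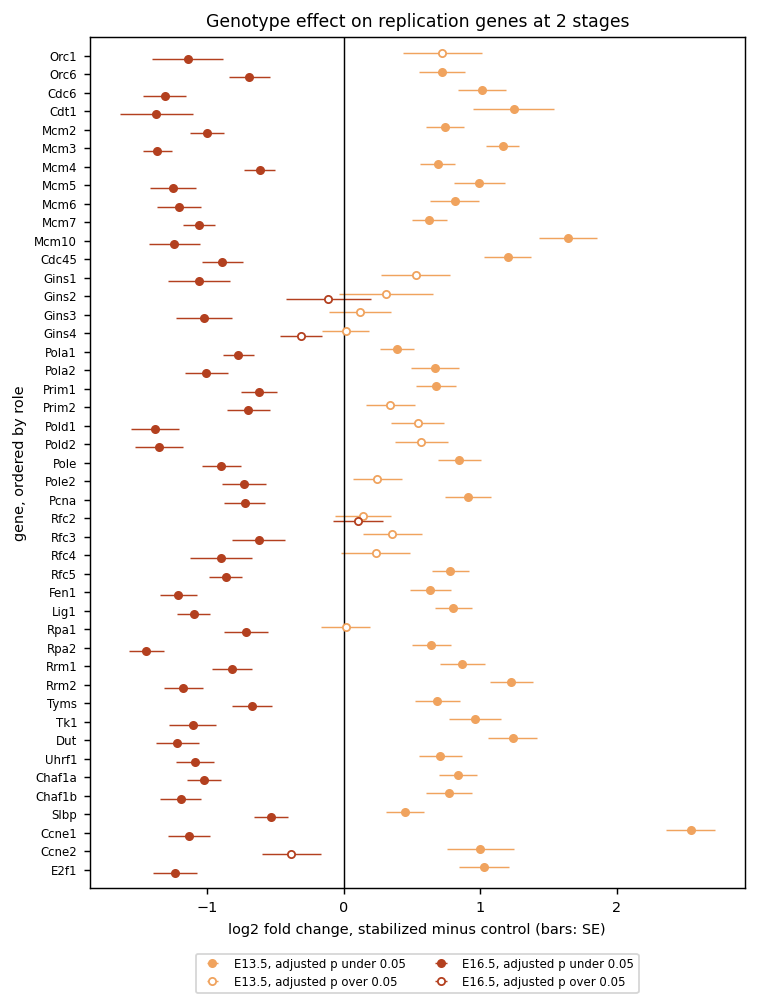
Log2 fold change of each replication gene, stabilized minus control, at E13.5 (light) and E16.5 (dark), with bars for the SE; filled points passed an adjusted p of 0.05. The E13.5 points lie at or right of 0, up to 2.54 for Ccne1, and 44 of 45 E16.5 points lie left of 0, down to -1.45 for Rpa2.

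The sliding clamp and its loader differed among themselves. Pcna, the clamp that holds polymerases on DNA, was at 72.6, 55.6, 107 and 81 CPM in E13.5 controls, against 188, 127, 160 and 119 CPM in E13.5 stabilized buds, and at 308, 276, 271, 279 and 255 CPM in E16.5 controls and 144, 180, 161, 181 and 175 CPM in E16.5 stabilized buds. Groups of the same stage did not overlap, with effects of 0.91 ± 0.168 and -0.72 ± 0.15. Of the 4 loader subunits in the set, Rfc5 rose at E13.5 (0.78) while Rfc2, Rfc3 and Rfc4 differed by 0.14, 0.36 and 0.24. Rfc3, Rfc4 and Rfc5 fell at E16.5, by 0.62, 0.90 and 0.87. With the offsets of the deposited normalized matrix the gain of Rfc5 was 0.33 (edgeR adjusted p = 0.365) and the fall of Rfc3 -0.34 (0.257), so both calls ended. Rfc3 passed at E13.5 without control replicate 3 (0.61, edgeR adjusted p = 0.0416).

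With TMM scaling Rfc2 was the only replication gene with a positive E16.5 value. Its libraries were at 88, 82.8, 88.5, 91.9 and 79.9 CPM in E16.5 controls and 82.3, 91.3, 50.4, 113 and 126 CPM in E16.5 stabilized buds. The stabilized libraries lay on both sides of the controls, and the difference of 0.10 ± 0.182 did not pass (edgeR adjusted p = 0.685). With the offsets of the deposited normalized matrix it was -1.08 and passed (edgeR adjusted p = 1.14e-04), so its direction rests on this choice. Exons of Rfc2 overlap those of Lat2 on the opposite strand. Exons of 13 of the 45 genes overlap those of another protein-coding gene, among them Mcm7 with Ap4m1 and Cops6, and named pseudogene copies exist for Tyms (Tyms-ps) and Pcna (Pcna-ps1 and Pcna-ps2), so their counts are uncertain.

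For Okazaki fragments and single-stranded DNA, 3 of 4 genes rose at E13.5 and 4 of 4 fell at E16.5. Rpa2, a subunit of the protein that coats single-stranded DNA, had the largest E16.5 fall: it was at 84.4, 72.9, 87.8, 79.9 and 85.3 CPM in controls and 24.6, 32.8, 36.1, 24.7 and 32.5 CPM in stabilized buds. All stabilized libraries were below all controls, by -1.45 ± 0.131 (edgeR adjusted p = 4.26e-08), or by -0.67 and without passing (0.0803) with the offsets of the deposited normalized matrix, which also ended its E13.5 call (0.57, edgeR adjusted p = 0.312). Its partner Rpa1 differed by 0.02 at E13.5 and fell by 0.72 at E16.5, a fall that was -0.23 and did not pass with those offsets (0.475). The flap nuclease gene Fen1 changed by 0.64 and -1.21, and the ligase gene Lig1 by 0.80 and -1.10.

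All 5 nucleotide supply genes rose at E13.5 and fell at E16.5. Rrm2, the small subunit of ribonucleotide reductase that is made in S phase, was at 33, 32.1, 24.1 and 25.7 CPM in E13.5 controls, against 53, 80.7, 71.1 and 64.2 CPM in E13.5 stabilized buds, and at 261, 210, 198, 205 and 185 CPM in E16.5 controls and 82, 115, 88.2, 80.3 and 104 CPM in E16.5 stabilized buds. The groups of each stage were fully apart, with effects of 1.23 ± 0.157 (adjusted p = 1.46e-05) and -1.17 ± 0.14 (adjusted p = 1.38e-06, edgeR). The large subunit gene Rrm1 changed by 0.87 and -0.82. Dut, whose enzyme keeps uracil out of DNA, changed by 1.24 and -1.22, the thymidine kinase gene Tk1 by 0.96 and -1.11, and the thymidylate synthase gene Tyms by 0.69 and -0.67.

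Genes for the copying of chromatin did the same in 4 of 4 cases at each stage. Uhrf1, which guides maintenance of DNA methylation, rose from 160 ± 33.5 to 262 ± 28.5 CPM and fell from 534 ± 49.3 to 251 ± 38.8 CPM. Chaf1a and Chaf1b, subunits of the chromatin assembly factor, changed by 0.84 and 0.77 at E13.5 and by -1.02 and -1.19 at E16.5. Slbp, which binds the stem-loop of histone mRNAs, had the smallest fall among those called (-0.53), and its gain of 0.45 (edgeR adjusted p = 0.0326) was lost when any one of control replicates 1 and 2 or stabilized replicates 1 and 3 was left out (0.0816 to 0.118), with library totals alone (0.0645) and in a fit of the 2 groups alone (0.135). The deposited offsets ended both calls of Slbp (0.0774 and 0.0595).

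Among the regulators of the G1 to S passage, Ccne1 departed from the common order. Ccne1 (ENSMUSG00000002068, chromosome 7, 38097984 to 38107534, minus strand, GRCm38), whose product drives Cdk2 at the G1 to S passage, was at 7.78, 5.2, 9.23 and 5.66 CPM in E13.5 controls, against 44.4, 45.3, 37.4 and 35.4 CPM in E13.5 stabilized buds. At E16.5 it was at 40.8, 30.6, 34.7, 33.5 and 34.2 CPM in controls and 15.2, 15.9, 16.1, 14.2 and 17.8 CPM in stabilized buds. Here E13.5 stabilized buds reached the level of E16.5 controls, and the ranges of these groups overlapped. The E13.5 gain was the largest among the 45 genes (2.54 ± 0.179, 5.82-fold, edgeR adjusted p = 9.59e-09), the E16.5 fall was -1.13 ± 0.153, and the difference between them was also the largest (-3.68 ± 0.234, edgeR adjusted p = 1.47e-09). With the offsets of the deposited normalized matrix the E16.5 fall was -0.59 and missed the threshold (edgeR adjusted p = 0.169).

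Ccne2, for the sister cyclin, was at 7.6, 9.81, 16.1 and 6.31 CPM in E13.5 controls, against 22.4, 18.6, 22.1 and 16.6 CPM in E13.5 stabilized buds, and at 47.4, 42.8, 31.9, 46.6 and 31.4 CPM in E16.5 controls and 26.6, 32.7, 24.3, 30.5 and 39.4 CPM in E16.5 stabilized buds. The E13.5 groups did not overlap and the E16.5 groups did. It was the one gene that rose at E13.5 (1.00 ± 0.243) and did not pass at E16.5 (-0.38 ± 0.214, edgeR adjusted p = 0.164). In a fit of the 2 groups alone the gain of Ccne2 missed the threshold (0.0543). E2f1, the transcription factor gene for the S-phase programme, rose from 13.4 ± 2.48 to 27.2 ± 3.79 CPM and fell from 46.8 ± 6.26 to 19.9 ± 4.27 CPM.

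**Figure D3:**
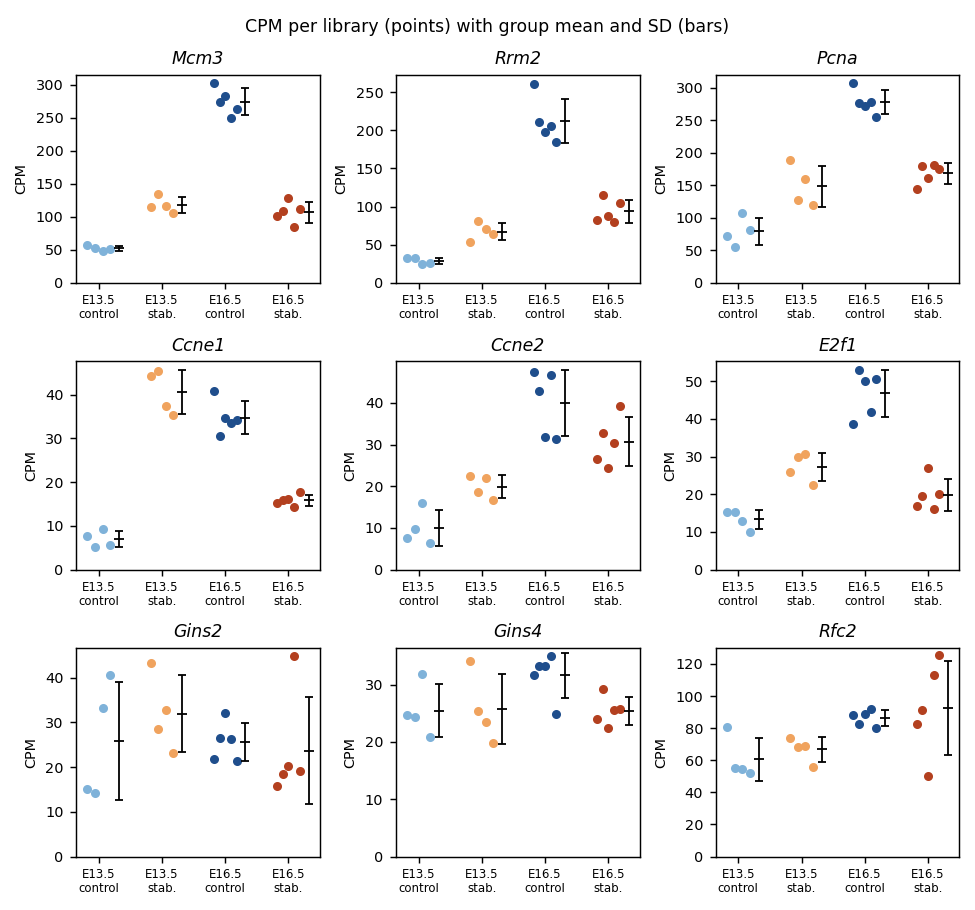
CPM in each library for 9 replication genes (panels, each axis from 0), with group mean and SD as bars. Mcm3, Rrm2, Pcna and E2f1 step up in E13.5 stabilized buds and down in E16.5 stabilized buds, Ccne1 is as high in E13.5 stabilized buds (40.6 CPM) as in E16.5 controls (34.7 CPM), and the groups overlap for Gins2, Gins4 and Rfc2.

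Between the stages, the control buds and the stabilized buds differed. In controls 43 of 45 genes rose from E13.5 to E16.5 and 0 fell in edgeR, in DESeq2 or at an unadjusted p under 0.05 (median 1.74), where 47.5% of all genes were called and 24.9% were called higher; the groups did not overlap for 42 genes, where 22.3% of all genes showed this. Rrm2 rose 7.38-fold, Mcm10 7.19-fold and Mcm3 5.22-fold, while Gins2 (-0.01) and Gins4 (0.31) did not pass. The rise of Rfc2 (0.51, edgeR adjusted p = 0.0379) was lost without any one of 7 of the 9 control libraries (0.0555 to 0.104); only leaving out E13.5 control replicate 1 or E16.5 control replicate 5 kept it. The rise of Rfc2 was also lost with library totals alone (0.253) and without both libraries that stood apart (0.0843), and the rise of Rfc3 with library totals alone (0.0663) and with the deposited offsets (0.127). Gins4 passed without E13.5 control replicate 3 (0.44, edgeR adjusted p = 0.0354). These comparisons share the E13.5 and E16.5 control libraries with the genotype comparisons.

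In stabilized buds 4 genes rose with stage and 1 fell (median -0.02), where 28% of all genes were called, 16.52% higher and 11.5% lower. The 4 were Pola1 (0.63), Ccne2 (0.62), Rrm2 (0.48) and Mcm4 (0.39), and the one that fell was Ccne1 (-1.36 ± 0.16, edgeR adjusted p = 3.47e-06). Its 4 E13.5 stabilized libraries, at 35.4 to 45.3 CPM, all lay above the 5 at E16.5, at 14.2 to 17.8 CPM, although with the offsets of the deposited normalized matrix the fall was -0.78 and missed the threshold (edgeR adjusted p = 0.104). Ccne2 (edgeR adjusted p = 0.0494) was lost without any one of 8 of the 9 stabilized libraries (0.0528 to 0.133), E16.5 replicate 3 being the one whose absence kept it. With the deposited offsets Mcm4 (0.056), Rrm2 (0.132) and Ccne2 (0.82) were lost, and with library totals alone all 4 were. Mcm4 and Rrm2 were lost without E13.5 stabilized replicate 1 (0.0555 and 0.075) or replicate 4 (0.0702 and 0.0525). The count of genes that rose was 1 without either of these libraries. The count that fell was 2 without E13.5 stabilized replicate 4 or E16.5 stabilized replicate 4 or 5, and 3 without E16.5 stabilized replicate 3. When library totals alone set the scale, 0 rose and 10 fell, a scaling that shifts the median of all genes by -0.27 here. For the other 40 genes a difference between the stabilized groups was not detectable at this spread, which does not show that their levels were equal; for Mcm3 it was -0.14 ± 0.113 and for Mcm10 -0.04 ± 0.195.

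In the 5 lists of further replication, checkpoint, nucleotide, chaperone and G1 to S genes most members did not pass at E13.5, and those that did were all higher in stabilized buds; at E16.5 most of the called genes were lower. Over all tested genes 9.58% were called higher at E13.5, and at E16.5 19.4% were called lower and 22.2% higher. Of 32 further replication factors 10 rose at E13.5, and at E16.5 22 fell and 1 rose. The helicase gene Recql4 changed by 0.60 and -1.50, the histone chaperone gene Ssrp1 by 0.32 and -0.83, and the origin-firing kinase gene Cdc7 by -0.23 (edgeR adjusted p = 0.492) and -1.51. The one that rose at E16.5 was Pold4, a small polymerase δ subunit, at 1.33 ± 0.383. Its level was low, at 1.00 to 4.88 CPM in E16.5 controls, and stabilized replicate 3 lay within that range at 3.24 CPM. Of 23 fork checkpoint and repair genes 9 rose at E13.5 and 18 fell at E16.5, among them Clspn (1.19 and -0.60), a mediator of the fork checkpoint, and Wee1 (0.41 and -1.23), the kinase that restrains Cdks. Topbp1, an activator of that checkpoint, fell at E16.5 (-0.90) and differed by 0.08 at E13.5.

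Of 11 other nucleotide enzymes 3 rose at E13.5, among them Shmt1 (1.29), of folate metabolism, and Dctd (0.64), the dCMP deaminase. At E16.5 7 of the 11 fell, including Shmt1 (-1.67), Dctd (-1.28) and the nucleoside diphosphate kinase gene Nme1 (-1.25), and Rrm2b rose (1.05 ± 0.328). Rrm2b encodes the reductase subunit that p53 induces outside S phase, and its direction was opposite to that of Rrm2. Its ranges at E16.5 overlapped, at 26.7 to 65.5 CPM in controls and 30.4 to 136 CPM in stabilized buds. Of 10 histone chaperone and maintenance genes 4 rose at E13.5, and at E16.5 all fell except Asf1a (-0.33, edgeR adjusted p = 0.17). Asf1b changed by 1.21 and -1.52, the maintenance methyltransferase gene Dnmt1 by 0.46 and -0.90, and Rbbp7 by 0.27 (edgeR adjusted p = 0.161) and -0.80.

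Of 27 other G1 to S regulators 9 rose at E13.5, and at E16.5 15 fell and 4 rose. Among all tested genes 19.4% were called lower and 22.2% higher at E16.5. Ccnd1, the D-type cyclin of early G1, was 362 ± 89.7 and 375 ± 92 CPM at E13.5 and fell at E16.5 from 1576 ± 193 to 373 ± 91.5 CPM. Ccna2, the S and G2 cyclin, rose from 26.6 ± 7.02 to 83.4 ± 13.4 CPM and fell from 222 ± 12.1 to 121 ± 15.1 CPM, and Tfdp1, for the E2F partner, changed by 0.73 and -0.98. The 4 that rose at E16.5 were Rb1 (1.46) and Rbl2 (0.36), for pocket proteins that hold E2F back, Ccnd3 (0.91) and Mycn (1.38), which also rose at E13.5 (1.51). Among 7 Cdk inhibitors 1 rose at E13.5, where 9.58% of all tested genes were called higher. At E16.5 4 of the 7 rose, against 22.2% of all tested genes. Cdkn1a, for p21, rose at both stages (5.24 ± 0.338 and 3.19 ± 0.273), from 10.2 ± 4.38 to 384 ± 111 CPM at E13.5 and from 36.1 ± 7.48 to 329 ± 103 CPM at E16.5. Cdkn1b (0.81), Cdkn1c (1.98) and Cdkn2b (2.18) rose at E16.5, where the replication genes fell.

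All 22 mitotic genes rose at E13.5 (median 1.39), where 9.58% of all tested genes were called higher. At E16.5 18 of them fell (median -0.80), where 19.4% of all tested genes were called lower. The spindle checkpoint gene Bub1b changed by 1.72 and -1.03, the topoisomerase gene Top2a by 1.38 and -0.87, and the spindle kinase gene Aurka by 1.90 and -0.91. The 4 that did not pass at E16.5 were Mki67 (-0.36, edgeR adjusted p = 0.0901), Nusap1 (-0.36), Ccnb2 (-0.38) and Cenpf (-0.31). Mki67, the common proliferation marker, was 176 ± 51.9 and 528 ± 105 CPM at E13.5 and 1291 ± 82.6 and 1008 ± 111 CPM at E16.5. In stabilized buds 11 of the 22 rose from E13.5 to E16.5 (median 0.48), where 16.52% of all tested genes were called higher. Of the 45 replication genes 4 rose (median -0.02), and this difference between lists was not tested. Of 67 tested histone genes 38 rose at E13.5 and 32 fell at E16.5, beside the same 9.58% and 19.4% of all tested genes. Examples were Hist1h1b (1.73 and -1.30), Hist1h2bk (1.41 and -1.74) and Hist1h4j (0.79 and -1.37). The histone list was taken by the start of the symbol, so it includes the pseudogene Hist3h2bb-ps beside replication-dependent genes. Replication-dependent histone genes are near-identical copies and their mRNAs lack poly(A) tails, so their single-gene counts are uncertain.

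In 1 E13.5 stabilized library replication and mitotic genes parted. Stabilized replicate 2 had a mean log2(CPM + 1) of replication genes of 5.69, as high as the next library of its group, and the highest value of 19 of the 45 genes. Its mean for the 22 mitotic genes was 5.63, against 6.23 to 6.37 in the others, and 20 of the 22 had their lowest value there. Its histone genes were also the lowest on average (5.93, against 6.22 to 7.10), and 44 of 67 were lowest there. Its mitotic mean still lay above all E13.5 controls (4.38 to 4.94). Replication minus mitotic mean was 0.07 in this library and -0.78 to -0.68 in the other 3. What set this library apart was not tested. Without it 31 replication genes rose at E13.5.

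**Figure D4:**
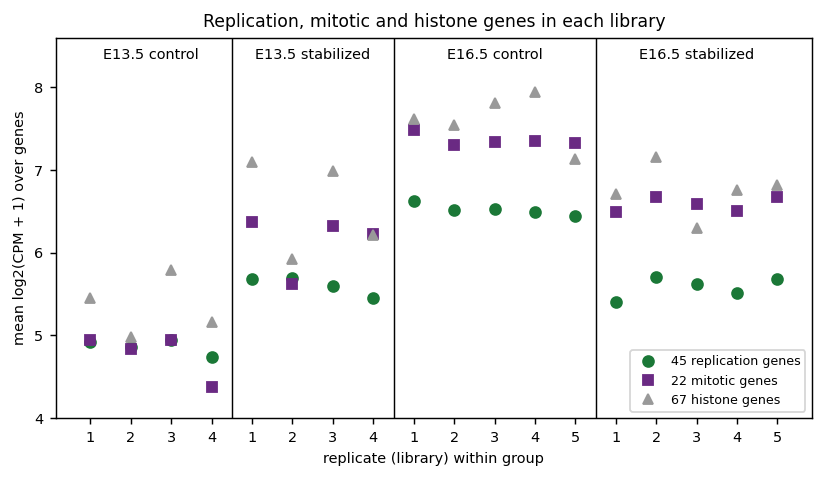
Mean log2(CPM + 1) of the 45 replication, 22 mitotic and 67 histone genes in each library (x axis, by group). Replication means rise from 4.74 to 4.95 in E13.5 controls to 6.44 to 6.62 in E16.5 controls, with both stabilized groups between 5.41 and 5.71; in E13.5 stabilized replicate 2 the mitotic mean drops to 5.63 while the replication mean does not.

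Groups also differed in how far the level of each gene varied between their libraries. The median coefficient of variation over the genes was 22.3% in E13.5 controls, 14.4% in E13.5 stabilized buds, 9.15% in E16.5 controls and 15.4% in E16.5 stabilized buds. E13.5 controls also had the lowest levels of these genes. In E16.5 controls replicate 1 had the highest value for 24 of 45 genes, in E13.5 stabilized buds replicate 4 the lowest for 26, and in E16.5 stabilized buds replicate 1 the lowest for 21. Leaving out any single library left between 30 and 33 genes that rose at E13.5 and 41 that fell at E16.5.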

How the data were processed

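RNA-seq of 18 libraries in 4 groups (stage by genotype) was read from the deposited tables. Per the submitters' processing notes, Salmon 0.99.0, Trimmomatic 0.39, DESeq2 3.15, FastQC 0.11.8 and MultiQC 1.9 were used with build mm10; the notes as given here state no roles, strand setting or annotation release. The main table holds the authors' deposited estimated counts per Ensembl gene, whole numbers in the file. The other holds deposited normalized signal values, equal to the count over a gene-specific and library-specific factor; it gave offsets for 1 alternative and nothing else. Symbols and positions came from GENCODE M21 (24190 of 24376 identifiers had a symbol).

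In edgeR 4.0.16 (R 4.3.3), filterByExpr (minimum count 10) kept 17269 genes. TMM factors and a robust quasi-likelihood fit with 1 mean per group on all 18 libraries gave 5 comparisons, with Benjamini-Hochberg adjustment over all tested genes at 0.05. Library totals of 26768810 to 36922108 counts set the counting precision, and the spread between pools set the errors. The genes and lists were chosen with earlier results of these data known. All 45 genes could be named, with up to 3 genes of smallest adjusted p per other list and any of 5 or fewer that moved against it or did not pass; 1 gene of these lists is not reported here. The script was tested on simulated counts in which 200 of the 17269 genes were changed at E13.5. It recovered 42.3% of 2-fold and 72.7% of 4-fold changes, with 4 false calls, so genes that did not pass may still differ. Alternatives were RLE factors, library totals, DESeq2 1.42.0, no filter, at least 50 counts, the deposited offsets, 2 groups per fit, a replicate block and each library left out; leaving out both libraries that stood apart was added after seeing the data. Same-numbered libraries of the 2 genotypes did not deviate together.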

Additional observations from a re-analysis of the deposited data

Results flagged for a closer look

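The genotype effect at E16.5 differed from that at E13.5, by the interaction test in edgeR, for 42 of the 45 replication genes, all downward, with adjusted p-values from 1.47e-09 (Ccne1) to 0.0243 (Rpa1). Values are the E16.5 effect minus the E13.5 effect on the log2 scale. Among origin licensing genes the difference was -1.87 for Orc1, -1.41 for Orc6, -2.33 for Cdc6, -2.62 for Cdt1, -1.74 for Mcm2, -2.53 for Mcm3, -1.30 for Mcm4, -2.25 for Mcm5, -2.02 for Mcm6 and -1.69 for Mcm7. For helicase activation the difference was -2.89 for Mcm10, -2.09 for Cdc45, -1.59 for Gins1 and -1.14 for Gins3. For polymerases and primase the difference was -1.16 for Pola1, -1.68 for Pola2, -1.30 for Prim1, -1.04 for Prim2, -1.93 for Pold1, -1.92 for Pold2, -1.75 for Pole and -0.98 for Pole2. For the clamp and its loader the difference was -1.64 for Pcna, -0.98 for Rfc3, -1.14 for Rfc4 and -1.65 for Rfc5. For Okazaki fragments and single-stranded DNA the difference was -1.85 for Fen1, -1.90 for Lig1, -0.73 for Rpa1 and -2.09 for Rpa2. For nucleotide supply the difference was -1.69 for Rrm1, -2.40 for Rrm2, -1.36 for Tyms, -2.07 for Tk1 and -2.46 for Dut. For the copying of chromatin the difference was -1.80 for Uhrf1, -1.86 for Chaf1a, -1.97 for Chaf1b and -0.98 for Slbp. Among the G1 to S regulators the difference was -3.68 for Ccne1, -1.38 for Ccne2 and -2.26 for E2f1. Gins2, Gins4 and Rfc2 did not pass. With the offsets of the deposited normalized matrix Rfc3 (-0.47) and Rpa1 (-0.52) no longer passed and Rfc2 did (-1.45), and Rpa1 also missed the threshold without E13.5 stabilized replicate 2 (-0.63, edgeR adjusted p = 0.0574).

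Single libraries stood far from the rest of their group for 7 genes; 180 groups were looked at, and chance flags about 1 in 20 of them, or 9. Gins2 was 44.95 CPM in E16.5 stabilized replicate 4, against 15.69 to 20.2 CPM in the other 4. Rfc2 was 80.67 CPM in E13.5 control replicate 1, above 54.93 CPM in the next. Pole was 100.1 CPM in E13.5 stabilized replicate 2, above 73.29 CPM in the next, and Rfc4 was 11.65 CPM in E13.5 stabilized replicate 4, below 16.69 CPM in the next. Pold2 was 66.0 CPM in E16.5 control replicate 5, below 97.85 CPM in the next. Fen1 was 65.05 CPM in E16.5 stabilized replicate 3, above 44.52 CPM, and Uhrf1 was 183.5 CPM in E16.5 stabilized replicate 4, below 256.8 CPM.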

How the results depend on the processing

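With each alternative the replication genes that rose at E13.5 numbered 24 (offsets of the deposited normalized matrix) to 33, those that fell at E16.5 36 (the same offsets) to 42, those with a downward interaction 41 or 42, and those that rose with stage in controls 41 to 43; 0 moved the other way in any of them. Leaving out each library in turn gave 30 to 33, 41 to 41, 41 to 42 and 42 to 43.

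In stabilized buds the stage comparison was less steady, with 4 rising and 1 falling as reported. Library totals alone gave 0 and 10 replication genes (1881 and 3965 of all genes), at least 50 counts gave 3 falling, the deposited offsets 2 rising, and leaving out both libraries that stood apart 2 falling. Leaving out each library in turn gave 1 to 5 rising and 1 to 3 falling. The cause was not tested, except that the scaling by totals shifts the median of all genes by -0.27.

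Over all genes, the deposited offsets gave 561 lower at E13.5 (914 as reported) and 1891 downward interactions (2870), and fits of 2 groups gave 1020 higher at E13.5 (1655), with fewer libraries behind the spread. The same replicate numbers in both genotypes did not pair the libraries: correlations of their deviations ran from -0.0995 to 0.172. Under a replicate block 32 genes rose at E13.5, with Pold1 gained and Pola1 lost (edgeR adjusted p = 0.0392 and 0.091), 41 fell at E16.5, 42 had a downward interaction and 2 fell with stage in stabilized buds; a library correlated best with its own number in 1 of 4 pairs at E13.5 and 2 of 5 at E16.5.

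Some values changed sign, most of them near 0. At E13.5, leaving out each library in turn gave -0.028 to 0.27 for Gins3, -0.15 to 0.14 for Gins4 and -0.17 to 0.13 for Rpa1. Gins4 was also -0.050 with library totals and -0.013 with the offsets, Pold1, at 0.54 as reported, -0.30 with the offsets, and Rpa1 -0.056 with library totals and -0.17 without both libraries that stood apart. At E16.5, leaving out each library gave -0.48 to 0.0060 for Gins2 and -0.022 to 0.26 for Rfc2; Rfc2 was -0.015 with library totals and -1.08 with the offsets (edgeR adjusted p = 1.14e-04). The interaction of Rfc2 was 0.0085 with RLE factors, 0.0086 in DESeq2 and -0.21 to 0.12 with each library left out. The stage effect of Gins2 in controls was 0.70 with the offsets, 0.086 with the replicate block, 0.13 without both libraries and -0.21 to 0.30 with each library left out. The cause was not tested.

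Per kilobase of median transcript length, the highest over the lowest of Mcm2 to Mcm7 was 6.53, 5.48, 3.68 and 5.28 in the order E13.5 control, E13.5 stabilized, E16.5 control and E16.5 stabilized. Low levels limit the precision of the lowest genes: Orc1 averaged 5.66, Ccne1 6.97 and Gins1 8.23 CPM in E13.5 controls.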
